A study of Mus musculus with 9 samples.

Results

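The 7 genes described here encode receptors (*Notch1*, *Notch2*, *Notch4*) and ligands (*Dll1*, *Dll4*, *Jag1*, *Jag2*) of the Notch pathway. They were chosen by gene symbol, and each was found as 1 locus among the 37104 loci of the expression tables. RNA-seq was performed on primary mouse lung endothelial cells (MLEC) from C57BL/6J mice aged 10 to 12 weeks, with 3 libraries in each of 3 groups. ECtrl mice carried *Cre* under the endothelial *Cdh5* (VE-cadherin) promoter and intact *Mapk8* (*Jnk1*) and *Mapk9* (*Jnk2*). EfCtrl mice had no *Cre* and carried LoxP-flanked *Jnk1* and *Jnk2* alleles. E3KO mice carried both the *Cdh5-Cre* transgene and the LoxP-flanked alleles, so that *Jnk1* and *Jnk2* were targeted in endothelial cells. All 3 groups were Jnk3-/-, including the controls. Each library was an independent cell isolation from the pooled lungs of several mice, selected for ICAM2 and then cultured. The comparison asks whether receptor and ligand RNA differed in endothelial cells targeted for JNK loss, against a control with *Cre* and a control with the floxed alleles. Values are FPKM, fragments per kilobase of transcript scaled by the mapped total, a length-scaled unit that can be compared between genes.

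Notch receptors are membrane proteins that are activated by ligands on a neighbouring cell. Binding leads to cleavage by ADAM and gamma-secretase proteases, and the released intracellular domain joins RBPJ and Mastermind proteins on target genes of the *Hes* and *Hey* families. In growing vessels DLL4 on the leading tip cell signals to NOTCH1 on the following stalk cells and restrains sprouting, and the pathway also takes part in arterial identity. JNK phosphorylates c-Jun, a subunit of the transcription factor AP-1.

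Promoter sequence is shown for *Dll4* and *Notch2*, which had the lowest levels in E3KO relative to the controls, and for *Notch4* and *Dll1*, the members whose windows held the AP-1 motif TGANTCA. The sequences are from RefSeq on GRCm38.p6, the mm10 build of the files, and are written on the strand of the gene from 120 bases before to 10 bases after the annotated start. Capitals mark a match to TGANTCA. The *Dll4* window is chr2:119325664-119325793 on the plus strand, that of *Notch2* is chr3:98013418-98013547 on the plus strand, that of *Notch4* is chr17:34564175-34564304 on the plus strand and that of *Dll1*, the second of the gene's annotated starts, is chr17:15376923-15377052 on the minus strand.
Dll4: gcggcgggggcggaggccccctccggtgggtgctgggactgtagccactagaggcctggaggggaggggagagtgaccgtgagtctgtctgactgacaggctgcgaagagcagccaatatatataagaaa
Notch2: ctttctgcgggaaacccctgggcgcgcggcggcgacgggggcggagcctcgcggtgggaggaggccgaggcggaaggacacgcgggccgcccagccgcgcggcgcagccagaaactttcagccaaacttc
Notch4: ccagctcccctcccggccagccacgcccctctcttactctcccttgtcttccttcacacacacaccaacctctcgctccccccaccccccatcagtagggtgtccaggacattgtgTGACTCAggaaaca
Dll1: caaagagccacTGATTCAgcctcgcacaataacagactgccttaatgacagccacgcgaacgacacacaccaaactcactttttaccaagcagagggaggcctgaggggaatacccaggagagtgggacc
The 7 members had 8 windows of 300 bases, and 2 of these held TGANTCA, a motif that reads the same on both strands. The *Notch4* match was TGACTCA, with its first base 4 bases before the start, and the *Dll1* match was TGATTCA, 109 bases before the second start. Of 32851 windows of this length over all genes, 7.81% held the motif. The RBPJ motif TGGGAA, searched on both strands, occurred in 25.6% of all windows and in 0 of the 8 member windows. These are matches of letters in a short window, and no binding was measured.

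Most of the members lie beside or across other annotated genes on mm10. *Notch1* (chromosome 2, 26445696 to 26516663, minus strand) shared its locus with *0610009E02Rik* and *Gm13568* on the opposite strand and with *Mir6996*. *Dll4* (chromosome 2, 119321187 to 119335962, plus strand) overlapped the antisense transcript *Gm14207*, and *Dll1* (chromosome 17, 15367354 to 15379475, minus strand) overlapped the antisense transcript *A930024N18Rik*. *Notch2* spanned chromosome 3, 98013538 to 98150367, on the plus strand, and *Notch4* spanned chromosome 17, 34564268 to 34588503, on the plus strand. *Jag1* lay at chromosome 2, 137081456 to 137116644, and *Jag2* at chromosome 12, 112908590 to 112929495, both on the minus strand. Whether reads were counted by strand is not given in the sources used here, so reads of antisense partners cannot be told apart.

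The labels were checked against the targeted genes. *Mapk9* was lower in all 3 E3KO libraries (27.8 ± 7.21 FPKM, SD, n = 3) than in the 6 control libraries (46.5 ± 2.99, SD). *Mapk8* was at 8.77 and 4.65 FPKM in E3KO replicates 2 and 3, against 14.0 to 17.9 in the controls. It was at 20.7 FPKM, above all controls, in the library labelled E3KO replicate 1. In that library *Mapk9* was at 27.6 FPKM, below all controls, so the targeted genes did not agree on its label. That library also stood apart in composition, with 96.4% of its summed FPKM in 10 symbols, against 40.9% to 56.8% in the other libraries. For part of the results below, among them those of *Notch2* and *Dll4*, values without it are therefore also given. *Mapk10* (*Jnk3*) was at or below 0.270 FPKM in every library. The endothelial markers *Cdh5* (613 to 943 FPKM) and *Pecam1* (643 to 798 FPKM) were high in every library, while *Vwf* reached at most 2.15 FPKM. Lymphatic markers were also high, with *Lyve1* at 1513 to 2050 FPKM.

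In the controls, all members except *Jag2* averaged over 2 FPKM. By the library values their order was *Jag1*, *Notch2*, *Notch1*, *Notch4*, *Dll4*, *Dll1*, *Jag2*. *Jag1*, the ligand with the highest level, averaged 14.9 ± 1.10 FPKM (SD, n = 6) and stood above 54.3% of the 10605 symbols tested. *Jag1* was above *Notch2* in 5 of the 6 control libraries, which did not pass an exact sign-flip test (p = 0.0625, two-sided). *Notch2* was above *Notch1* in all 6 control libraries (exact sign-flip p = 0.0312, the smallest that 6 libraries allow), an order that holds for the library values and is turned in the authors' group values. *Notch1*, *Notch4* and *Dll4* could not be separated by the library values, with exact sign-flip p = 0.75 for *Notch1* against *Notch4* and p = 0.594 for *Notch4* against *Dll4*. The authors' group values set them apart in ECtrl and EfCtrl, with *Notch4* at 42.8 and 43.4 FPKM, *Notch1* at 15.5 and 16.5 and *Dll4* at 9.39 and 8.24. Their order is therefore uncertain. *Dll4* was above *Dll1* and *Dll1* was above *Jag2* in all 6 libraries (exact sign-flip p = 0.0312 for each). In E3KO the order of the means was *Jag1*, *Notch4*, *Notch1*, *Notch2*, *Dll4*, *Dll1*, *Jag2*, so the mean of *Notch2* stood below those of the other receptors. This order was not tested, and in E3KO replicate 2 *Notch2* (9.30 FPKM) was above *Notch1* (7.91 FPKM). By the authors' group values *Notch2* was below the other receptors in every group.

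Across the 7 members, the 2 genes whose E3KO libraries all lay below all 6 control libraries were *Notch2* and *Dll4*, with E3KO means at 59.6% and 56.7% of the control means. Such a lower position without overlap was found for 11.5% of all symbols tested, and for 16.1% without the library labelled E3KO replicate 1, and *Notch2* and *Dll4* held it in both cases. No member lay above all controls, as 5.18% of symbols did. No member passed limma with adjustment over all symbols tested, in which an adjusted p under 0.05 was counted as a call. The members called were 0 of 6 tested against ECtrl (2.25% of all symbols called), 0 of 6 against EfCtrl (0.952%), 0 of 6 against the mean of both controls (4.8%) and 0 of 6 between the controls (0%). With an unadjusted limma p under 0.05, *Dll4* and *Notch2* were counted in each of the 3 comparisons with E3KO, beside 20.1%, 17.7% and 23.8% of all symbols, and no member was counted between the controls (1.84%). These 3 comparisons share the E3KO libraries. The median difference of the 6 members against the mean of the controls was -0.13 on the log2(FPKM + 1) scale, beside -0.08 over all symbols. In cultured cell pools, fewer cells that express a gene and less of its RNA per cell cannot be told apart.

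**Figure D1:**
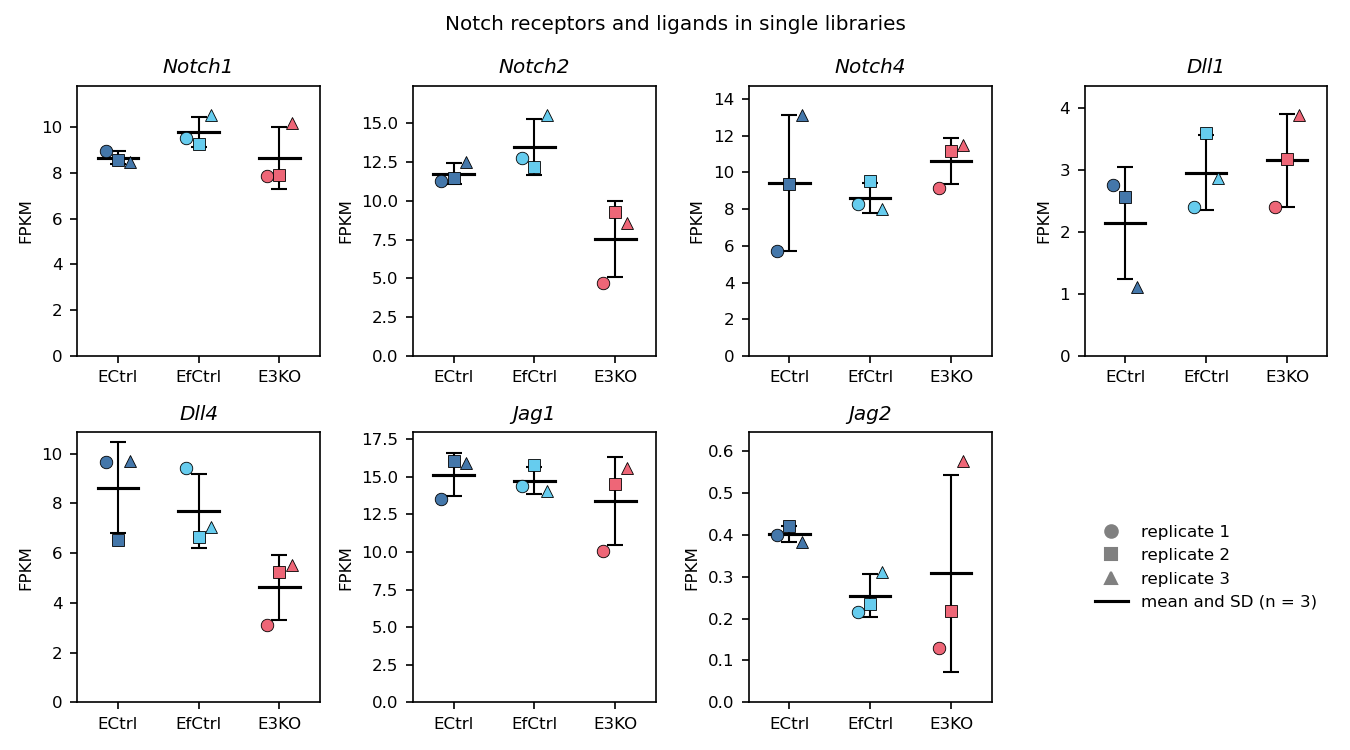
FPKM of the 7 members in each library by group, with the point shape giving the replicate number and lines giving the mean and SD of 3 libraries. The 3 E3KO libraries lie below all control libraries for *Notch2* (4.73 to 9.30 FPKM) and *Dll4* (3.13 to 5.53 FPKM), and the groups overlap for the other members.

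Among the receptors, *Notch2* differed most between E3KO and the controls. NOTCH2 is a widely expressed receptor that is also found in endothelium. *Notch2* was at 11.3, 11.5 and 12.5 FPKM in ECtrl, at 12.8, 12.2 and 15.6 FPKM in EfCtrl and at 4.73, 9.30 and 8.56 FPKM in E3KO, each in the order of replicates 1 to 3. The lowest value was in the library labelled E3KO replicate 1, and the highest E3KO value was under the lowest control value. The difference in mean log2(FPKM + 1) between E3KO and the 6 controls was -0.72, with exact permutation p = 0.0119, two-sided and the smallest that 84 arrangements of the libraries allow. Without the library labelled E3KO replicate 1 the difference was -0.45 (exact permutation p = 0.0357, the smallest that 28 arrangements allow). By limma the difference was -0.63 (SE 0.22, adjusted p = 0.167) from ECtrl, -0.80 (SE 0.22, adjusted p = 0.121) from EfCtrl and -0.72 (95% interval -1.15 to -0.28, adjusted p = 0.0714) from the mean of the controls. Leaving out the library labelled E3KO replicate 1 gave smaller limma differences. They were -0.36 from ECtrl (limma adjusted p = 0.160) and -0.54 from EfCtrl (limma adjusted p = 0.0918).

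*Notch1* encodes the receptor most studied in sprouting and arterial endothelium. *Notch1* was at 8.98, 8.55 and 8.50 FPKM in ECtrl, at 9.55, 9.28 and 10.5 FPKM in EfCtrl and at 7.85, 7.91 and 10.2 FPKM in E3KO. E3KO replicates 1 and 2 lay below all controls, and replicate 3 lay within the EfCtrl range. The limma difference from the mean of the controls was -0.09 (95% interval -0.33 to 0.15, adjusted p = 0.627), and the exact permutation p was 0.381. All 3 EfCtrl libraries were above all 3 ECtrl libraries, as for 3.48% of all symbols in that direction.

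NOTCH4 is a receptor found mainly in endothelial cells. *Notch4* was at 5.73, 9.36 and 13.1 FPKM in ECtrl, at 8.26, 9.56 and 8.03 FPKM in EfCtrl and at 9.16, 11.2 and 11.5 FPKM in E3KO. The ECtrl libraries spanned the values of both other groups. The limma difference between E3KO and the mean of the controls was 0.24 (95% interval -0.24 to 0.73, adjusted p = 0.509), an interval that holds differences of either sign. The exact permutation p was 0.345. By the authors' group values *Notch4* was at 64.6 FPKM in E3KO, 42.8 in ECtrl and 43.4 in EfCtrl. The size of its difference therefore depended on which deposited value was used.

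Among the ligands, *Dll4* was the one without overlap. DLL4 is the ligand of tip cells and arterial endothelium. *Dll4* was at 9.67, 6.52 and 9.68 FPKM in ECtrl, at 9.40, 6.65 and 7.05 FPKM in EfCtrl and at 3.13, 5.24 and 5.53 FPKM in E3KO. The lowest E3KO value was again in the library labelled E3KO replicate 1, and the gap between the highest E3KO and the lowest control library was small. The difference in mean log2(FPKM + 1) from the 6 controls was -0.71 (exact permutation p = 0.0119), and -0.50 without that library (exact permutation p = 0.0357). By limma the difference was -0.78 (SE 0.23, adjusted p = 0.110) from ECtrl, -0.64 (SE 0.23, adjusted p = 0.203) from EfCtrl and -0.71 (95% interval -1.16 to -0.26, adjusted p = 0.0783) from the mean of the controls. Without the library labelled E3KO replicate 1 the limma difference from EfCtrl was -0.43, with a 95% interval of -0.89 to 0.02 that includes 0. The antisense transcript *Gm14207*, which overlaps the start of *Dll4*, was at 1.57, 2.29 and 6.60 FPKM in ECtrl. It was at 3.15, 2.30 and 2.80 FPKM in EfCtrl and at 0.257, 2.11 and 1.34 FPKM in E3KO. Its E3KO libraries lay below all EfCtrl libraries and overlapped those of ECtrl. Against both controls the exact permutation p was 0.0357 over all 9 libraries and 0.25 without the library labelled E3KO replicate 1. The part of *Gm14207* in the *Dll4* values was not tested.

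DLL1 is a ligand of arterial endothelium and of many other cells. *Dll1* was at 2.76, 2.56 and 1.11 FPKM in ECtrl, at 2.40, 3.60 and 2.87 FPKM in EfCtrl and at 2.39, 3.18 and 3.88 FPKM in E3KO. One E3KO library exceeded all controls and ECtrl replicate 3 was the lowest of all libraries. The limma difference from the mean of the controls was 0.25 (95% interval -0.24 to 0.73, adjusted p = 0.497).

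JAG1 is a ligand that can oppose DLL4 during sprouting. *Jag1* was at 13.5, 16.0 and 15.9 FPKM in ECtrl, at 14.4, 15.8 and 14.0 FPKM in EfCtrl and at 10.1, 14.5 and 15.6 FPKM in E3KO. Only the library labelled E3KO replicate 1 was under the control range, and the difference from the controls was -0.17 with it (limma, 95% interval -0.49 to 0.16, adjusted p = 0.495) and 0.01 without it. *Jag2* was at 0.399, 0.422 and 0.384 FPKM in ECtrl, at 0.216, 0.235 and 0.312 FPKM in EfCtrl and at 0.131, 0.218 and 0.575 FPKM in E3KO. It was under the filter of a mean of 2 FPKM in at least 1 group and was not tested by limma. Its 3 EfCtrl libraries lay below all ECtrl libraries, while 4.41% of all symbols tested did so, and E3KO spanned both (exact permutation p = 0.774).

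**Figure D2:**
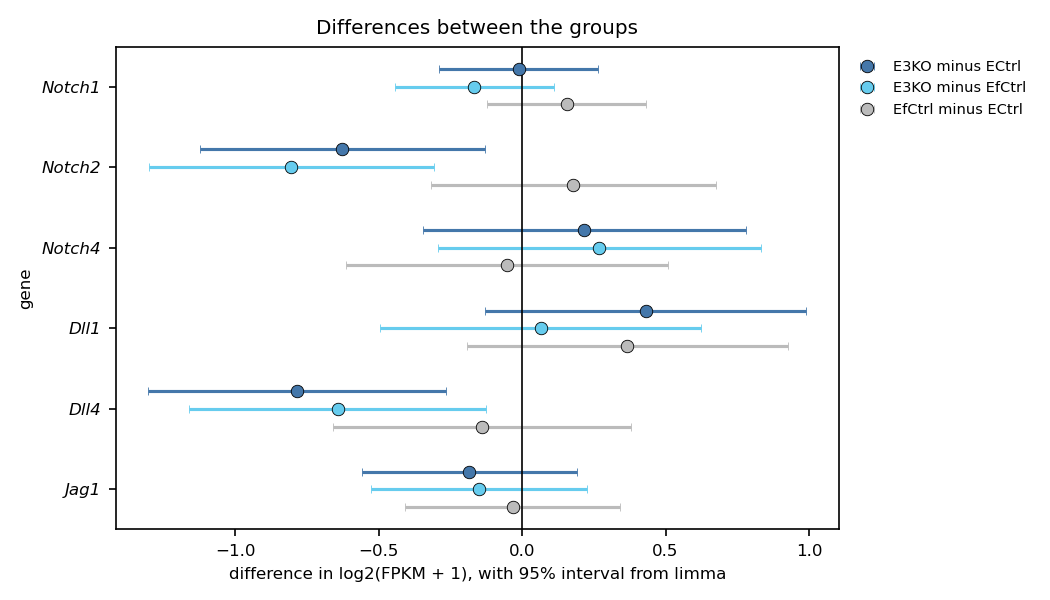
Differences in log2(FPKM + 1) between the groups for the 6 members tested, with points for the limma estimate and bars for its 95% interval. With all 9 libraries, the intervals of *Notch2* and *Dll4* lie below 0 for E3KO against each control group before adjustment for the number of symbols tested. Every interval between the controls includes 0.

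The make-up of the ligand and receptor RNA was compared within libraries, since a share does not depend on how a library was scaled. For this, 14 shares, sums and ratios of the 3 E3KO libraries were set against those of the 6 controls by a two-sided exact permutation test, with p not adjusted. The share of *Dll4* in the summed FPKM of the 4 ligands was 36.7%, 25.5% and 35.7% in ECtrl, 35.6%, 25.3% and 29.0% in EfCtrl and 19.9%, 22.6% and 21.6% in E3KO. All E3KO libraries were below all controls, and the means were 21.4 ± 1.37% (SD, n = 3) and 31.3 ± 5.32% (SD, n = 6, exact permutation p = 0.0238). Without the library labelled E3KO replicate 1 the exact permutation p was 0.107. The ratio of *Dll4* to *Jag1* was 0.342 ± 0.0274 in E3KO and 0.551 ± 0.127 in the controls (SD, exact permutation p = 0.0357, and p = 0.107 without that library). The share of *Dll1* was 14.7% in E3KO and 9.87% in the controls (exact permutation p = 0.0476, and p = 0.143 without that library), and the share of *Jag1* was 62.6% and 57.5% (exact permutation p = 0.0833). A lower share of 1 ligand raises the shares of the others, so these are not separate results from the *Dll4* share. The level of *Dll1* itself gave exact permutation p = 0.381.

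The receptors differed in make-up as well. The share of *Notch2* in the 3 receptors was 43.4%, 39.1% and 36.7% in ECtrl, 41.8%, 39.3% and 45.6% in EfCtrl and 21.7%, 32.8% and 28.3% in E3KO. The E3KO libraries were all below the controls (exact permutation p = 0.0119, and p = 0.0357 without the library labelled E3KO replicate 1). *Notch2* RNA exceeded *Notch1* RNA in every control library, with a ratio of 1.25 to 1.48, while the ratio was 0.602, 1.18 and 0.840 in E3KO (exact permutation p = 0.0119, and p = 0.0357 without that library). The levels of *Notch1* and *Notch4* depended on which deposited value was used. By the authors' group values *Notch2* was below *Notch1* in every group, at 13.0 and 15.5 FPKM in ECtrl, 14.7 and 16.5 FPKM in EfCtrl and 8.87 and 15.2 FPKM in E3KO. The share of *Notch4* was 39.8 ± 2.12% in E3KO and 28.9 ± 6.04% in the controls (SD, exact permutation p = 0.0357, and p = 0.107 without the library labelled E3KO replicate 1), with ECtrl replicate 3 inside the E3KO range at 38.4%. A lower *Notch2* share raises the *Notch4* share, and the level of *Notch4* itself gave exact permutation p = 0.345. The summed FPKM of the ligands was 21.5 in E3KO and 26.0 in the controls with overlap (exact permutation p = 0.0357, and p = 0.107 without the library labelled E3KO replicate 1). That of the receptors was 26.8 and 30.9 (exact permutation p = 0.131), and the ratio of ligands to receptors was 0.795 and 0.850 (exact permutation p = 0.405). The receptor sum and this ratio rest on the library values of *Notch4*. By the authors' group values *Notch4* was at 64.6 FPKM in E3KO, 42.8 in ECtrl and 43.4 in EfCtrl. The direction of the difference in the receptor sum is therefore uncertain.

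**Figure D3:**
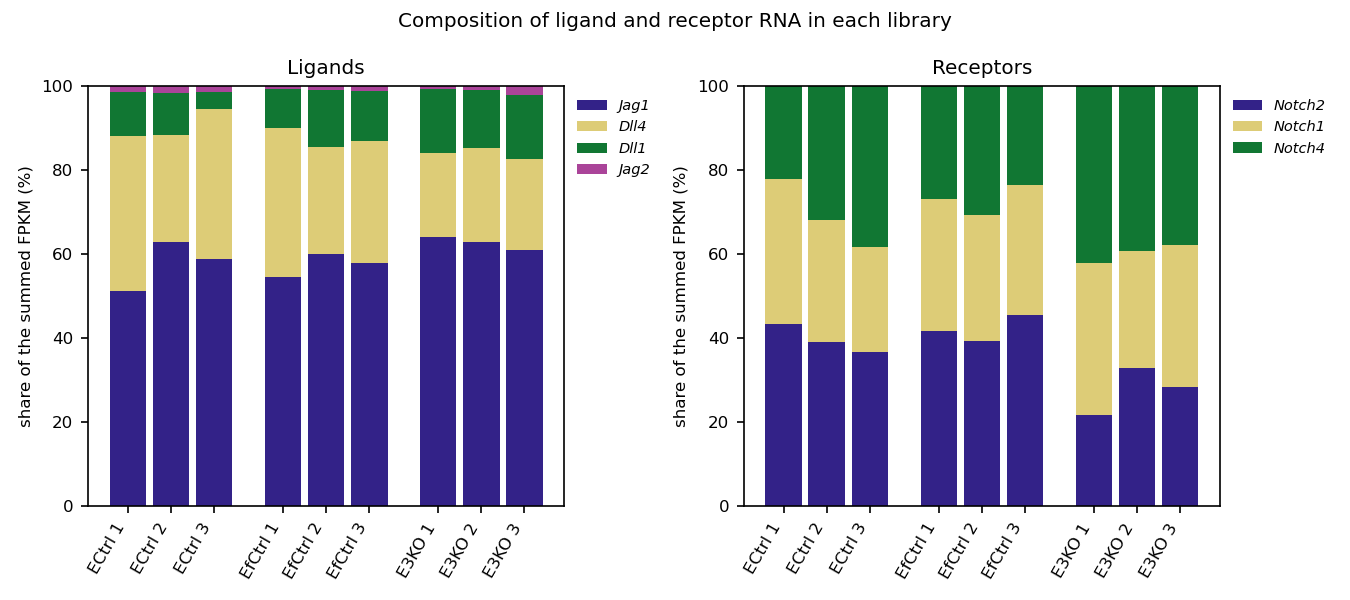
Share of each ligand in the summed FPKM of the 4 ligands (left) and of each receptor in the summed FPKM of the 3 receptors (right), as percent, with 1 bar for each library. The *Dll4* band takes 19.9% to 22.6% of the ligand bars in E3KO and 25.3% to 36.7% in the controls, and the *Notch2* band takes 21.7% to 32.8% of the receptor bars in E3KO and 36.7% to 45.6% in the controls.

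The tables also hold 1 FPKM value for each group, computed by the authors over its libraries, and for *Notch4* these were far from the library values. The authors' group values of *Notch4* were 42.8 FPKM in ECtrl, 43.4 in EfCtrl and 64.6 in E3KO, which is 4.55, 5.04 and 6.09 times the mean of the 3 libraries. Among all symbols tested, the median of this ratio was 1.08, 1.07 and 1.17, and it exceeded 4 in 0.113% to 0.151% of them. For *Notch1* the group values were 15.5, 16.5 and 15.2 FPKM, or 1.79, 1.69 and 1.76 times the library means. The other members were within 1.05 to 1.20 times. By the group values *Notch4* would be the most abundant of the members in each group, and by the library values *Jag1* was. The reason for the gap was not tested, and levels of *Notch4* and *Notch1* relative to other genes are uncertain by these factors. For *Notch4* the factor was largest in E3KO, so the size of its difference between E3KO and the controls is uncertain as well.

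**Figure D4:**
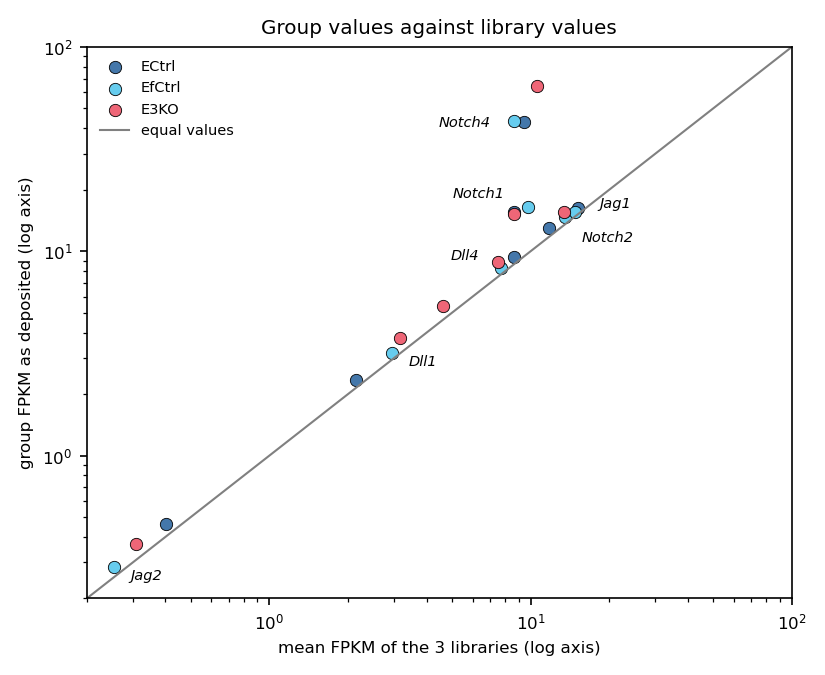
Group FPKM as deposited against the mean FPKM of the 3 libraries, both on log axes, for the 7 members in 3 groups, with a line at equal values. *Notch4* lies 4.55 to 6.09 times above the line and *Notch1* 1.69 to 1.79 times, while the other members lie close to it.

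Genes whose levels followed those of *Dll4* and *Notch2* were listed by Pearson's r on log2(FPKM + 1) over the 9 libraries, as a description. These libraries share the same 3 groups, so that any gene lower in E3KO tends to score high. For *Dll4* the 5 highest were *Clstn1* (r = 0.990), *Rnaseh1* (0.988), *Sigirr* (0.984), *Gpt2* (0.983) and *Ppp1ca* (0.981). For *Notch2* they were *Olfml2b* (r = 0.984), *Dock10* (0.977), *Daglb* (0.975), *Adarb1* (0.974) and *Erap1* (0.974). All 10 were lower in every E3KO library than in every control library, as were 11.5% of all symbols tested. The choice by correlation favours such genes, so this count is not a separate result. *Adarb1*, which encodes an RNA-editing deaminase, was at 10.5 FPKM in E3KO and 19.9 FPKM in the controls, and *Clstn1* was at 13.3 and 21.8 FPKM.

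Of 48 other genes of the pathway in 6 lists, 35 passed the filter. Against the mean of the controls, 2 of these were called and both fell, beside 3.26% of all symbols called lower. Against ECtrl 1 was called and fell (1.43%), and against EfCtrl 0 were called (0.585%). At an unadjusted limma p under 0.05, 1 was higher and 8 were lower against the mean of the controls, 1 and 6 against ECtrl and 2 and 5 against EfCtrl, where 23.8%, 20.1% and 17.7% of all symbols were counted in either direction. The median difference of the 35 genes from the mean of the controls was -0.20 on the log2(FPKM + 1) scale, beside -0.08 over all symbols. *Hey1*, a transcriptional repressor and direct Notch target, was at 10.8, 7.77 and 5.91 FPKM in ECtrl, 5.43, 5.08 and 5.54 FPKM in EfCtrl and 2.05, 2.99 and 2.91 FPKM in E3KO. It fell by 1.06 on the log2 scale against the mean of the controls (SE 0.17, limma adjusted p = 0.0184) and by 1.30 against ECtrl (SE 0.20, limma adjusted p = 0.0260), and its difference from EfCtrl was -0.81 and was not called (limma adjusted p = 0.0989). The call against ECtrl was kept in 6 of 14 alternatives. It was lost without ECtrl replicate 1 (limma adjusted p = 0.0657), E3KO replicate 2 (0.0511), E3KO replicate 3 (0.0975) or any one EfCtrl library (0.0533 to 0.0606). The call against the mean was lost without EfCtrl replicate 1 (limma adjusted p = 0.0553), EfCtrl replicate 3 (0.0589) or E3KO replicate 3 (0.0758). Without the library labelled E3KO replicate 1 *Hey1* was still called, with a difference of -0.93 (limma adjusted p = 0.0401). *Dtx1*, a Deltex ubiquitin ligase that acts on Notch receptors, was at 8.61, 1.62 and 5.12 FPKM in ECtrl, 4.72, 2.35 and 4.24 FPKM in EfCtrl and 0.280, 0.872 and 0.215 FPKM in E3KO. It fell by 1.81 on the log2(FPKM + 1) scale (SE 0.39, limma adjusted p = 0.0401 against the mean of the controls). That call was lost when any one library other than ECtrl replicate 2 was left out, with limma adjusted p from 0.0503 to 0.127 (0.0851 without the library labelled E3KO replicate 1).

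The remaining genes of the pathway gave no call. In the cleavage list, with 9 genes tested, the most abundant was *Adam10*, the protease of the first ligand-induced cut, at 172 FPKM in E3KO and 193 FPKM in the controls. In the nuclear list, with 8 tested, it was *Snw1*, a transcriptional cofactor, at 45.4 and 47.8 FPKM. *Maml2* and *Maml3*, 2 Mastermind coactivators of the same list, were chosen after their values were seen. *Maml2* was at 5.10 FPKM in E3KO and 8.49 FPKM in the controls without overlap (limma adjusted p = 0.0933), and *Maml3* at 2.61 and 1.66 FPKM, in the opposite direction and also without overlap (limma adjusted p = 0.0733). In the glycosylation list, with 4 tested, *Poglut1*, which adds glucose to Notch receptors, was at 41.0 and 43.2 FPKM. In the list of ubiquitin ligases and trafficking proteins, with 10 tested, *Numb*, an inhibitor of Notch, was at 37.2 and 34.6 FPKM. Among the targets, with 3 tested, *Nrarp*, a feedback inhibitor, was the most abundant at 55.1 and 47.9 FPKM. Its limma difference from the mean of the controls was 0.21 (adjusted p = 0.268). The third target tested, *Hes1*, which falls outside the naming rule, was at 29.0 and 39.5 FPKM, with a limma difference of -0.44 (adjusted p = 0.197), so that the estimates of *Hey1* and *Hes1* were below 0 and that of *Nrarp* above it. The secreted protein gene *Egfl7* was listed with *Fam69b* and *Gm20532* as 1 locus, at 265 and 286 FPKM.

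*Notch3*, the receptor of smooth muscle and pericytes, was near 0 in the controls (0.0151 to 0.0947 FPKM) and at 0.238 to 0.263 FPKM in E3KO, without overlap (exact permutation p = 0.0119). It was below the filter and was chosen for mention after its values were seen. When no filter was used, its limma difference from the mean of the controls was 0.25 (adjusted p = 0.0303). It was not called against ECtrl (limma adjusted p = 0.0594) or against EfCtrl (limma adjusted p = 0.0686).

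**Figure D5:**
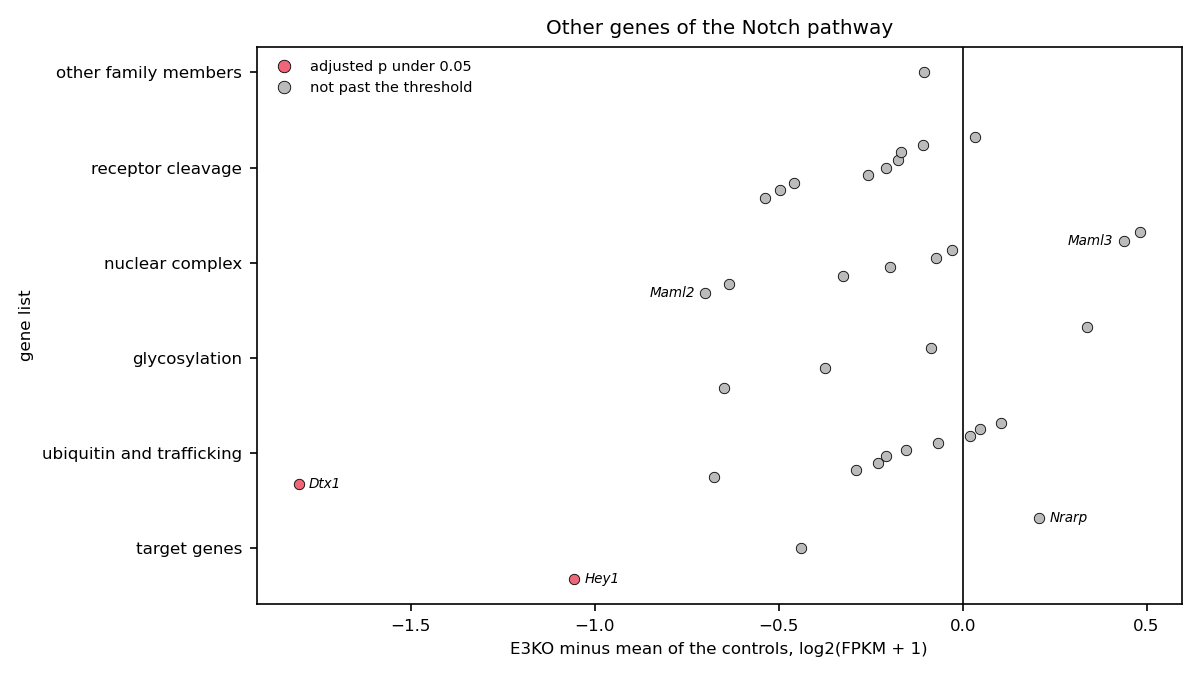
Difference between E3KO and the mean of the controls in log2(FPKM + 1) for the 35 other genes of the pathway that were tested, with 1 point for each gene and the lists as lines of points. *Hey1* and *Dtx1*, in red, passed an adjusted p of 0.05 and were both lower, and the other 33 genes, in grey, did not pass.

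Markers of cell types were summed beside these results. The 10 endothelial markers summed to 2779 to 3567 FPKM in the controls and 3552 to 3950 FPKM in E3KO. Of these, *Emcn*, a marker of veins and capillaries, was above all controls in every E3KO library, and the others overlapped. Its median was 1477 FPKM in E3KO and 999.5 FPKM in the controls. The E3KO medians of *Tie1*, *Icam2*, *Vwf*, *Eng* and *Erg* were below those of the controls. Those of *Cdh5*, *Pecam1*, *Kdr* and *Tek* were above them. The 6 lymphatic markers summed to 2179 to 2862 and 2011 to 2319 FPKM, and 3 of them, *Prox1*, *Reln* and *Ccl21a*, were lower in every E3KO library. *Prox1*, which defines lymphatic identity, was at 58.1 to 79.2 FPKM in E3KO and 117 to 158 FPKM in the controls. The 9 smooth muscle and pericyte markers summed to 8.47 to 56.3 FPKM in the controls and 8.18 to 14.0 FPKM in E3KO, with *Cspg4* at or under 0.0186 FPKM in every library. *Acta2* ranged over 4.31 to 35.1 FPKM among control libraries and 4.49 to 6.32 FPKM among E3KO libraries, and *Tagln* over 3.74 to 18.8 and 3.07 to 7.13 FPKM, both with overlap. *Cnn1* was below all controls in every E3KO library, at 0 to 0.103 FPKM against 0.119 to 1.11 FPKM. *Notch3*, also 1 of these 9 markers, went the other way and was above all controls. It was at 0.238 to 0.263 FPKM in E3KO against 0.0151 to 0.0947 FPKM in the controls. The 6 fibroblast markers summed to 5.06 to 27.1 FPKM in the controls and 4.58 to 12.9 FPKM in E3KO, with *Col1a1* below all controls in every E3KO library. The 8 macrophage markers found summed to 80.0 to 152 FPKM in ECtrl, 158 to 250 in EfCtrl and 192 to 317 in E3KO, with the pan-leukocyte marker *Ptprc* at or under 1.59 FPKM in every library. *Itgam* was above all controls in every E3KO library (1.66 to 1.98 FPKM, against 0.156 to 1.30 FPKM). *Lyz2* was at 133 to 221 FPKM in E3KO and 28.0 to 191 FPKM in the controls, and *Cd68* at 17.6 to 50.6 and 12.8 to 26.8 FPKM, both with overlap. The 7 epithelial markers summed to 2.55 to 6.05 FPKM in the controls and reached 51.3 FPKM in the library labelled E3KO replicate 1. The part of these markers in the values of *Dll4*, *Notch2*, *Hey1* and *Dtx1* was not tested.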

How the data were processed

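RNA-seq was performed on primary MLEC in 3 groups of 3 libraries. The authors aligned reads to mm10 with TopHat and Bowtie and estimated FPKM with Cufflinks (version 1.0.3 in the submitters' processing notes) and Cuffdiff. The deposited tables hold FPKM for each library and each group, and the authors' log2 fold changes, p-values and q-values, which were not used.

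Library FPKM were tested with limma 3.58.1 (R 4.3.3) on log2(FPKM + 1), with all 9 libraries and 3 group means in 1 fit, default moderation and Benjamini-Hochberg adjustment over 10605 symbols of 1 locus averaging at least 2 FPKM in 1 or more groups. Called means an adjusted p under 0.05. The fit was tested on simulated data. Single values were compared by exact permutation (Python 3.11.15). The study compared group values with Cuffdiff, whose output was set aside as the authors' own comparison.

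Groups and replicate numbers came from the labels. Members, gene lists and rules were chosen with earlier results of these data known. Named were the 7 members, pathway genes called in any comparison, the most abundant gene of each list, the 5 genes most correlated with *Dll4* and with *Notch2*, the targeted genes and the markers. Alternatives were the pseudocount (0.1), the filter, median centring, a mean-variance trend, a replicate block and leaving out each library.

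Fragment counts for each gene are unknown, so no counting intervals are given. Steps between low FPKM values gave relative depths of 1 to 1.68 times ECtrl replicate 2, as a rough guide from broad peaks.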

Additional observations from a re-analysis of the deposited data

Results flagged for a closer look

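*Notch2* in the 6 control libraries had 1 library far from the others, EfCtrl replicate 3, at 15.6 FPKM, where the other controls lay between 11.3 and 12.8 FPKM. Its gap to the nearest library was 0.649 of the whole range. This was 1 of 21 groups of values examined, and chance gives about 1 in 20. Without this library the difference between E3KO and the controls in *Notch2* was -0.66 on the log2(FPKM + 1) scale (exact permutation p = 0.0179).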

How the results depend on the processing

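No member was called in any of 364 fitted values over 15 settings and 4 comparisons, and the smallest adjusted p by limma was 0.0610 (*Notch2* against the mean of the controls, with a mean-variance trend). *Dll4* and *Notch2* kept their direction against each control group in all 14 alternatives. The unadjusted limma p was under 0.05 in 12 of these for *Dll4* against EfCtrl and in 13 for *Notch2* against ECtrl. It was so in all 14 for *Dll4* against ECtrl and *Notch2* against EfCtrl. The limma adjusted p of *Dll4* against EfCtrl reached 0.511 without EfCtrl replicate 1, and that of *Notch2* against EfCtrl reached 0.350 without EfCtrl replicate 3. Against the mean of the controls *Dll4* ranged from -0.83 to -0.50 (limma adjusted p 0.0645 to 0.162) and *Notch2* from -0.87 to -0.45 (0.0610 to 0.152). Members without overlap numbered 2 in all settings except without E3KO replicate 3, where *Notch1* made 3. Centring moved *Notch1* against ECtrl to 0.0599. With each library left out in turn, uncalled differences crossed 0: *Notch1* against ECtrl -0.124 to 0.0459, *Notch4* against ECtrl -0.0660 to 0.469, *Dll1* against EfCtrl -0.0600 to 0.203, *Jag1* against EfCtrl -0.262 to 0.0279, *Jag1* against the mean of the controls -0.279 to 0.0111, and between the controls *Notch4* -0.335 to 0.20 and *Jag1* -0.110 to 0.00630. The *Dll4* share differed by -11.1 to -8.86 percentage points, and its unadjusted exact permutation p was no longer under 0.05 without E3KO replicate 1. The ratio of *Dll4* to *Jag1* differed by -0.238 to -0.176. Its unadjusted exact permutation p was no longer under 0.05 without ECtrl replicate 3, EfCtrl replicate 1 or any one E3KO library. Pathway genes called numbered 0 to 2 against ECtrl, 0 to 1 against EfCtrl and 0 to 2 against the mean. These refits of the pathway genes and the order of levels with a pseudocount of 0.1 were added after seeing the data.

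With a replicate block, pathway genes called were 0 against ECtrl and 0 against the mean of the controls (*Hey1* adjusted p by limma 0.0653 and 0.0556), and 0 against ECtrl also with no filter, where *Hey1* was at 0.0514. The block gave 202 calls over all symbols against the mean, 1 against ECtrl and 1 against EfCtrl, where the fit without it gave 509, 239 and 101. Same-numbered libraries came from different mice, and their deviations correlated at -0.04 to 0.123. Those of different-numbered libraries from different groups correlated at -0.215 to 0.079. The labels do not say whether same-numbered libraries shared a preparation batch, and this was not tested. With no filter 95 symbols were called against ECtrl and 17 against EfCtrl. With each library left out, calls ranged from 9 (without E3KO replicate 3) to 408 against the mean, 0 to 215 against ECtrl and 1 to 218 against EfCtrl. Calls against the mean split as 163 higher and 346 lower, and after centring as 209 and 268. The causes were not tested. Counts of fragments are unknown, so the precision of low values such as *Jag2* and *Notch3* is unknown too.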
